A study of Mus musculus with 32 samples.

Results

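Experiment T is 1 of the 2 liver RNA-sequencing experiments of a mouse study of body weight in developing and established obesity under sodium oxybate (SXB), a narcolepsy drug that is gamma-hydroxybutyrate given as its sodium salt. Its members were all libraries of the T table, 16 of the 32 libraries of the series. The labels give 8 of them, numbered 1, 2, 3, 7, 9, 12, 13 and 18, to SXB and 8, numbered 4, 6, 8, 10, 11, 14, 15 and 16, to vehicle. All came from liver of C57BL/6J mice, an inbred laboratory strain, and the labels record no dose, diet, age, sex or time, nor which form of obesity T stands for. Whether each library stands for a separate mouse is not recorded, so p-values reflect the spread among libraries, which may be technical. The table lists 306 genes, which the authors had already selected on these libraries for a change beyond 1 on the log2 scale and an unadjusted p below 0.05. Every count given here is thus taken among genes preselected by the authors. The p-values and adjusted p-values given here also retest genes chosen on the same libraries. They describe how far the groups separate and cannot be read as error rates. Values are the authors' normalised expression values, without a stated unit beyond that, and in whole liver fewer cells of a type cannot be told apart from less RNA per cell.

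As background, hepatocytes secrete most plasma proteins, among them hepcidin, the hormone that lowers iron export from cells by binding ferroportin, and the acute phase proteins that respond to interleukin-6 and interleukin-1. The same cells store triglyceride in lipid droplets, whose size depends on the balance of fatty acid uptake, triglyceride synthesis and lipolysis. In obesity the liver accumulates fat, and genes of droplet coating that are typical of adipose tissue can become active in hepatocytes.

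The labels of a pair of libraries conflict with the table. Library 16 is labelled vehicle but stands in the block of SXB columns, and library 18 is labelled SXB but stands in the block of vehicle columns. The authors' deposited fold changes had a median log2 distance of 0.428 from those computed under the labels (303 genes), and of 0.15 from those computed from the column blocks (299 genes). On a gene by gene count, the value of the library labelled vehicle 16 lay nearer the mean of the other SXB libraries for 194 of 306 genes, and that of the library labelled SXB 18 lay nearer the mean of the other vehicle libraries for 261. Because the authors' selection may rest on the column blocks, these counts are no independent evidence for either grouping. Each result is therefore given for all 16 labelled libraries and for the 14 libraries without 16 and 18, with 7 per side. Libraries 1 to 4, of which 1, 2 and 3 are SXB and 4 is vehicle, also stand apart, since the mitochondrial gene mt-Atp6 was listed between 486 and 6422 there and at 44.8 or less in all others, with 0 in 7 of them. Hamp and Serpina1e, both made by hepatocytes, were listed at no less than 3439 and 956 in any library, while other defining liver markers were not analysed here.

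In the 16 labelled libraries no listed gene passed limma at an adjusted p of 0.05 (0 of 306, 0%), and 90 (29.4%) had an unadjusted p below 0.05, 39 higher and 51 lower with SXB. An exact permutation test over libraries, two-sided, also passed 0 genes after adjustment and gave 97 with an unadjusted p below 0.05. For 0 genes (0%) did the labelled groups not overlap. In the 14 libraries 56 genes passed limma (18.3%), 19 higher (6.21%) and 37 lower (12.1%), and 147 (48%) had an unadjusted p below 0.05. The permutation test passed 61 in these libraries, 21 higher and 40 lower. Of the 56 genes, every one kept its direction in the 16 libraries with a smaller difference, and 43 had an unadjusted p below 0.05 there. Because the 14 libraries are part of the 16, this shared direction is no separate test. Over all 306 genes the median absolute difference was 0.204 on the log2(value + 1) scale with 16 libraries and 0.306 with 14. Differences, SEs and limma p-values refer to this scale. Folds are ratios of the group means of the deposited values and were not themselves tested. In what follows, "rose" and "fell" are kept for genes that passed limma in the 14 libraries, and no such call holds in the 16, where the limma adjusted p of these 56 genes lay between 0.167 and 0.506.

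**Figure D1:**
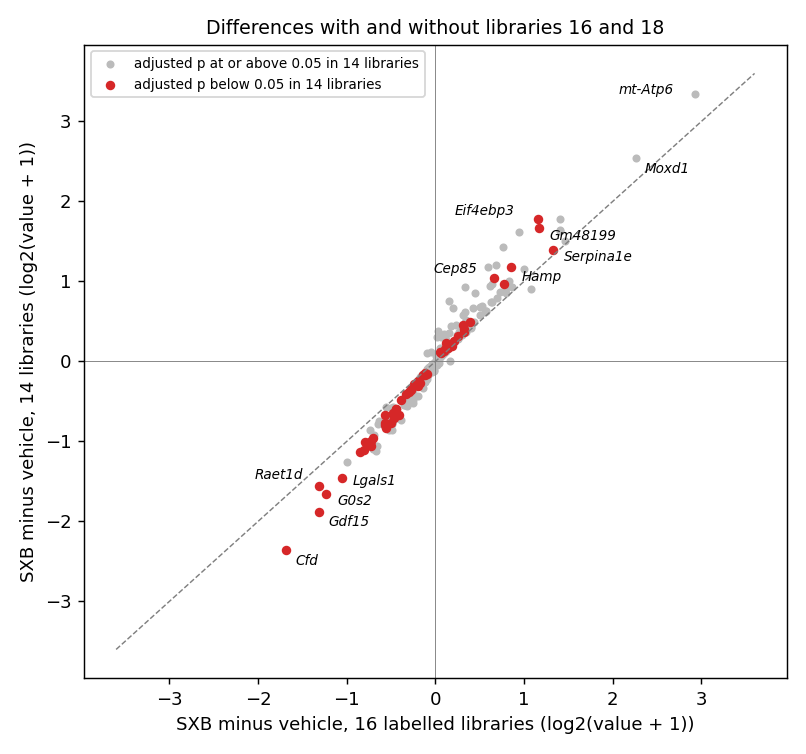
Each point is 1 of the 306 listed genes, with its SXB minus vehicle difference of mean log2(value + 1) in the 16 labelled libraries on the horizontal axis and in the 14 libraries without 16 and 18 on the vertical axis. Red points are the 56 genes with a limma adjusted p below 0.05 in the 14 libraries, and the dashed line marks equal differences: 303 of the 306 genes lie farther from 0 on the vertical axis.

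These calls leaned on single libraries. Without SXB library 2 only 3 genes passed, and the call of 53 of the 56 genes ended. Cep85, Eif4ebp3 and Mup-ps12 passed in each of the 14 omissions of 1 library. With libraries 1 to 4 left out, all 56 genes kept their direction and 2 of them passed, the pseudogene Mup-ps12 and the unnamed model Gm15491. A further 2 genes, Myh15 and Gm2098, passed only in those 10 libraries. Gm2098 was listed at 0.59, 0.59, 0.7 and 0.67 in SXB libraries 12, 13, 7 and 9 and at 0 in the other 12 libraries, SXB libraries 1, 2 and 3 among them. It is annotated as a pseudogene on chromosome Y, and the sex of the mice is not recorded. The chromosome Y pseudogenes Gm29000 and Gm28819 were also at 0 in libraries 1 to 4, with highest values in vehicle libraries 14 (0.78) and 16 (1.99). What sets these values apart was not tested. Gm15491 was at 0 in all 8 vehicle libraries and in SXB libraries 1, 2 and 18, and at 0.22 to 0.82 in the other 5 SXB libraries. A listed 0 can be a failed estimate, so no fold is given for Gm2098 or Gm15491.

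**Figure D2:**
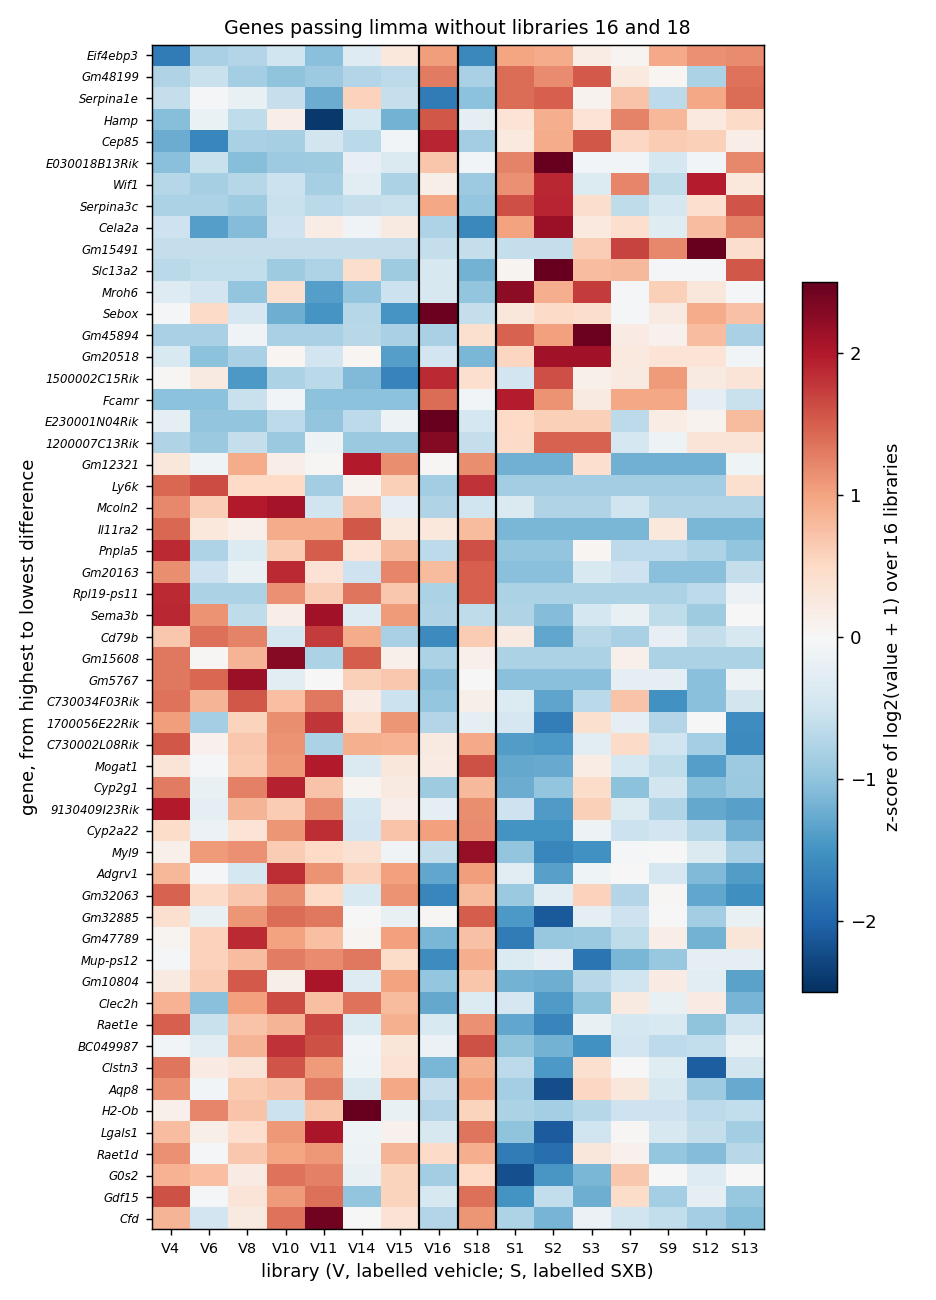
Rows are 55 of the 56 genes that passed limma in the 14 libraries, ordered by their difference, columns are the 16 libraries, and the colour is the z-score of log2(value + 1) of a gene over the 16 libraries. The genes passed on 14 of these columns, so their split there is given by the choice. The 2 framed columns, 16 and 18, were left out of that fit but were part of the authors' preselection. In library 16, 41 of the 56 genes lie nearer the other SXB libraries, and in library 18, 8 of the 56. These counts are therefore no independent evidence for either grouping.

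The listed hepcidin and acute phase genes were higher with SXB, but only Hamp passed, and only in the 14 libraries. The table holds 6 of the 31 genes of this list, all 6 higher in both comparisons, against 148 of 306 listed genes. Their median difference was 0.65 in the 16 libraries and 1.18 in the 14, beside -0.02 and -0.04 over all listed genes. Of the 6, Hamp passed in the 14 libraries, where 6.21% of all listed genes passed upward. Cytokine receptors act on acute phase promoters through STAT factors, and the promoters of the members that hold TTCNNNGAA, the core these factors recognise, are shown because the 6 genes went the same way. Among the 6 genes, all with a RefSeq promoter of 250 bases before to 50 bases after the start site, the motif was found in Hamp and Socs3 and not in the windows of Saa1, Saa2, Saa4 and Il1r1. It reads the same on both strands, and 8.30% of the 32851 mouse promoters in the same table hold it. The windows below are from RefSeq on GRCm38.p6, chr7:30943980-30944279 for Hamp and chr11:117969317-117969616 for Socs3. Both are on the minus strand, written 5′ to 3′ with the motif in capitals. It starts 97 bases before the RefSeq start site in Hamp and 154 before it in Socs3. The Socs3 window lies inside the gene as annotated in GENCODE M21 (bases 117966079 to 117970047), downstream of the start given there.
Hamp: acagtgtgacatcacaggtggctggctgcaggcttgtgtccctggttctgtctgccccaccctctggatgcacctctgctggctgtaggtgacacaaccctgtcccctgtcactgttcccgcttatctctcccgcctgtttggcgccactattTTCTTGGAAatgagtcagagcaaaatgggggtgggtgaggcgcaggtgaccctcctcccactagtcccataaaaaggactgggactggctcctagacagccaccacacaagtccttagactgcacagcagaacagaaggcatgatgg
Socs3: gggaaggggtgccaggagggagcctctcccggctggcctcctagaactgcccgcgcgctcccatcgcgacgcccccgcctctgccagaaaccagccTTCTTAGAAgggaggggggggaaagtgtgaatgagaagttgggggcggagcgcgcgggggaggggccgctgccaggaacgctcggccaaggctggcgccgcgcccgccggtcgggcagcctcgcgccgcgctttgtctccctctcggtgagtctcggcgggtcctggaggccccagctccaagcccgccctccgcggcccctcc
A match in these letters is a description, not a binding site.

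Hamp, the gene of hepcidin (chromosome 7, bases 30942368 to 30944032 in GENCODE M21 on GRCm38), was listed with vehicle between 3439 and 32559.8 with a median of 9953. With SXB its values ran from 11692 to 27352 with a median of 17076. The highest value of all was that of the library labelled vehicle 16, and the lowest SXB value was that of library 18. Without them the highest vehicle value, 14837 in library 10, lay below the lowest SXB value, 15473 in library 12. Hamp was 1 of 3 genes (0.98%) whose groups did not overlap in the 14 libraries, with Cep85 and Mup-ps12. It rose 2.12-fold there, from 9239 ± 3751 (SD, n = 7) to 19615 ± 4357 (n = 7), a log2(value + 1) difference of 1.18 (SE 0.27, limma adjusted p = 0.0263). Over the 16 libraries the difference was 0.85 (SE 0.35, limma adjusted p = 0.167). The call ended without SXB library 2 (differences of 0.97 to 1.32 over the 14 omissions), and without libraries 1 to 4 it was 1.21 (limma adjusted p = 0.123).

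The serum amyloid A genes, acute phase apolipoproteins that lie side by side on chromosome 7, were high in single libraries. Saa1 was 516, 285 and 203 in SXB libraries 2, 1 and 12 and 409 in vehicle library 16, and between 7.73 and 74.8 in the other 12. Saa2 followed it, with 537, 334 and 218 in the same SXB libraries and 503 in vehicle library 16. Both differences in the 14 libraries, 1.43 (SE 0.90) and 1.18 (SE 0.97), missed the threshold, with limma adjusted p-values of 0.174 and 0.271. Saa4, the constitutive member of the family, was 565, 385 and 276 in SXB libraries 2, 3 and 1 and 256 in vehicle library 16, and at most 177 elsewhere. Il1r1, the signalling receptor for interleukin-1, showed the same 4 libraries at the top, with 13.02, 17.4 and 12.4 in SXB libraries 1, 2 and 3, 27.3 in vehicle library 16 and 6.62 or less in the other 12. Socs3, a feedback inhibitor of cytokine signalling, had a vehicle median of 4 (range 2.26 to 8.31) and an SXB median of 9.84 (range 2.16 to 29.9) in the 14 libraries, a difference of 1.21 that did not pass (SE 0.44, limma adjusted p = 0.0605). With libraries 1 to 4 left out the differences in the remaining 10 were 0.49 for Saa1, 0.24 for Saa2, 0.24 for Saa4, 0.08 for Il1r1 and 0.87 for Socs3. With all labelled libraries except 1 to 4, which keeps 16 and 18, Saa1, Saa2, Saa4 and Il1r1 were lower with SXB, with differences of -0.15, -0.27, -0.037 and -0.41.

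Further secreted protease inhibitors and a translational repressor were also higher. Of the 18 genes of the serpin list, the table holds Serpina1e and Serpina3c, and both rose in the 14 libraries, against 6.21% of all listed genes. Serpina1e, 1 of several near-identical mouse alpha-1-antitrypsin genes whose reads can be shared, had a vehicle median of 2551 (range 956 to 6720.4) and an SXB median of 8432 (range 1764 to 14484) in the 16 libraries. The groups overlapped through SXB libraries 3, 9 and 18. In the 14 libraries it was 2.78-fold higher with SXB, by 1.39 on the log2 scale (SE 0.43, limma adjusted p = 0.0421), against 1.33 in the 16, and the call held in the omissions of vehicle libraries 6 and 14 and SXB libraries 3 and 9 and in no other of the 14, with differences of 1.21 to 1.68. Serpina3c was listed at 0.15 or less in the 7 vehicle libraries and at 0.13 to 1 in the 7 SXB libraries, with 0.62 in vehicle library 16 and 0.05 in SXB library 18. Its difference of 0.45 (SE 0.12, limma adjusted p = 0.0353) did not pass without vehicle library 4, 8, 10 or 11 or SXB library 1, 2 or 13 (0.39 to 0.52 over the omissions).

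Eif4ebp3, whose protein binds the cap-binding factor eIF4E and represses translation, was listed at 12.03 to 69.2 in the 7 vehicle libraries (median 29.6) and at 58.5 to 151 in the 7 SXB libraries (median 123). Only vehicle library 15 reached into the SXB range. The conflicting libraries went the other way, with 135 in vehicle library 16 and 13.5 in SXB library 18. Eif4ebp3 rose 3.32-fold in the 14 libraries (1.79, SE 0.34, limma adjusted p = 0.0203), and in the 16 its difference was 1.16 (SE 0.52, limma adjusted p = 0.167). Another annotated gene overlaps it in the same orientation, so reads may be shared. Cep85, a centrosomal protein gene (chromosome 4, bases 134129858 to 134187112), ran from 136 to 292 in the 7 vehicle and from 326 to 648 in the 7 SXB libraries, with 768 in vehicle library 16 and 197 in SXB library 18. Cep85 also shares its strand and position with another annotated gene, so reads may be shared here too. The 7 and 7 libraries did not overlap in value, and Cep85 rose 2.06-fold (1.04, SE 0.18, limma adjusted p = 0.017). Its exact permutation p was 0.000582751, the smallest that the 3432 assignments allow, and its difference in the 16 libraries was 0.67 (limma adjusted p = 0.167). The unnamed long non-coding model Gm48199, picked after its values were seen, stood at 0.81 or less in the 7 vehicle libraries, at 0.51 in SXB library 12 and at 1.89 to 8.23 in the other 6 SXB libraries, while vehicle library 16 held 6.71 and SXB library 18 held 0.49. It rose by 1.67 (SE 0.37, limma adjusted p = 0.0263) in the 14 libraries, against 1.17 in the 16, a call that ended without SXB library 2.

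**Figure D3:**
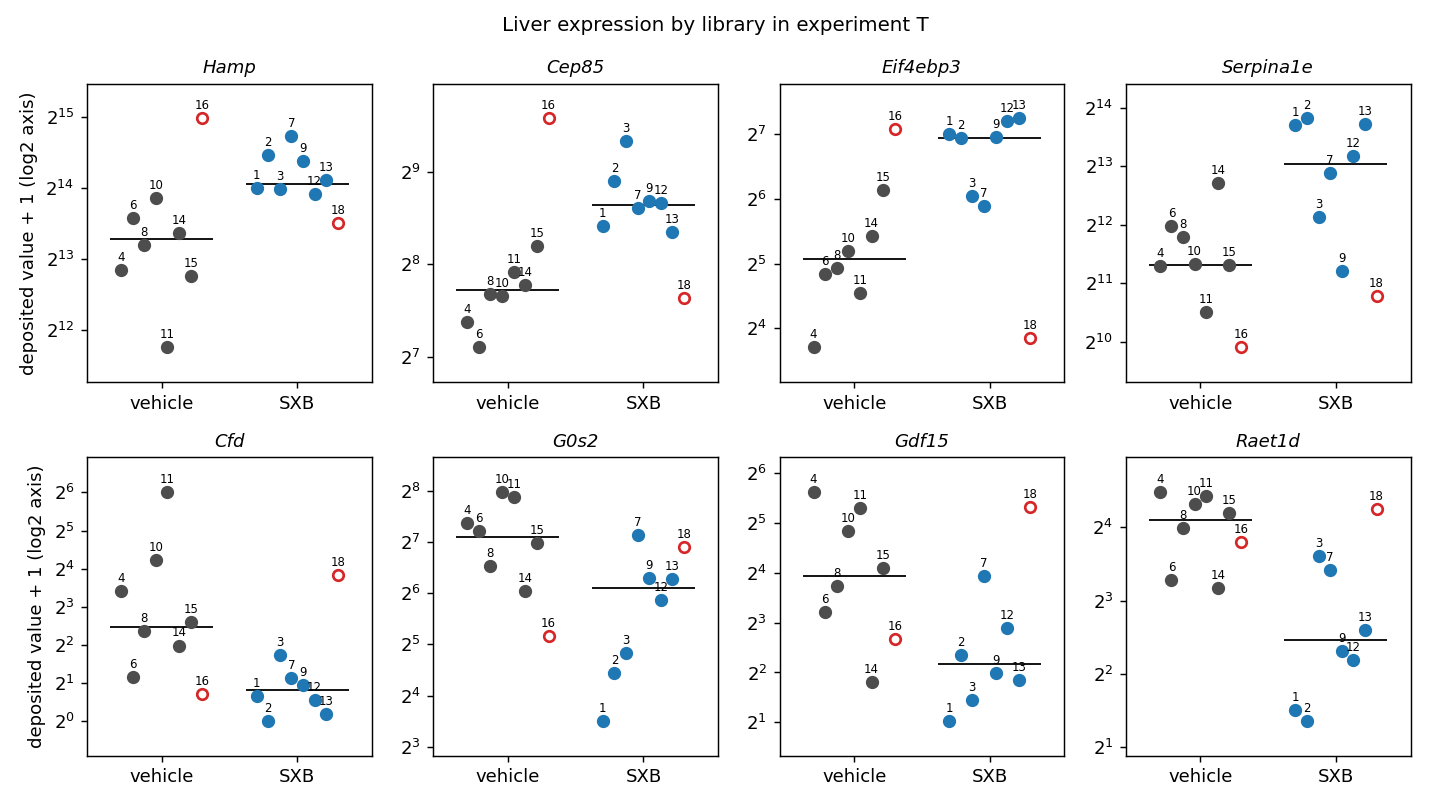
Each point is the deposited value plus 1 of 1 library, numbered, on a log2 axis, in the labelled vehicle and SXB groups of 8, with a line at the group median of all 8. Open red points are libraries 16 and 18: in Hamp, Cep85 and Eif4ebp3 library 16 lies above the SXB median and library 18 below the other SXB libraries, and in Cfd and Gdf15 library 18 is the highest SXB value.

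The listed genes of lipid storage were lower with SXB, most of them without a call. The table holds 8 of the 22 genes of this list, and all 8 were lower in both comparisons, with a median difference of -0.67 in the 16 libraries and -0.83 in the 14, beside 158 of 306 listed genes that were lower. In the 14 libraries 3 of them fell, Cfd, G0s2 and Mogat1, against 12.1% of all listed genes. Cfd, the serine protease adipsin of the alternative complement pathway, was 9.58, 1.22, 4.11, 17.9, 63.7, 2.96 and 5.02 in vehicle libraries 4, 6, 8, 10, 11, 14 and 15 and 0.65 in vehicle library 16. In the SXB libraries it was between 0 and 2.31, apart from 13.1 in library 18. Its log2 difference was -2.36 (SE 0.62, limma adjusted p = 0.0339) in the 14 libraries and -1.68 (SE 0.72, limma adjusted p = 0.167) in the 16, and the call ended without vehicle library 4 or 10 or SXB library 2 or 13 (-2.69 to -1.88). G0s2, whose protein inhibits the triglyceride lipase ATGL, was lowest in SXB libraries 1, 2 and 3 (10.3, 20.9 and 27.5), 57.6 to 139 in SXB libraries 7, 9, 12 and 13, and 64.5 to 251 in the 7 vehicle libraries. It fell by 1.66 in the 14 libraries (SE 0.52, limma adjusted p = 0.0428), against -1.23 in the 16, and the call was kept only when vehicle library 14 or SXB library 7 or 9 was the one left out (-1.93 to -1.33). Without libraries 1 to 4 the difference of G0s2 was -0.70 (limma adjusted p = 0.248), against -2.35 for Cfd (limma adjusted p = 0.149). Mogat1, which makes diacylglycerol from monoacylglycerol, was 0.46 to 1.93 with vehicle and 0.08 to 0.72 with SXB in the 14 libraries and fell 3.3-fold (-0.59, SE 0.15, limma adjusted p = 0.0295), against -0.44 in the 16, a call that ended without vehicle library 10 or SXB library 2.

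The other lipid storage genes did not pass. Pparg, a nuclear receptor that drives fat storage, had a vehicle median of 5.69 and an SXB median of 2.47 in the 14 libraries. SXB libraries 3, 7 and 9 (6.37, 6.28 and 5.74) lay above the vehicle median, and 1, 2, 12 and 13 (2.16, 0.83, 2.47 and 1.68) below every vehicle library. Cd36, a fatty acid carrier, split the same SXB libraries, with 7.66 to 11.6 in 3, 7 and 9 and 1.59 to 5.75 in 1, 2, 12 and 13. Cidea and Cidec, which coat lipid droplets, and Pnpla3, a droplet hydrolase, had differences of -0.92, -0.79 and -0.58 in the 14 libraries with limma adjusted p-values of 0.185, 0.143 and 0.106. Pnpla5, a relative that neighbours Pnpla3 on chromosome 15 and was picked after its values were seen, fell by 0.17 from a mean of 0.159 ± 0.1 (SD, n = 7) to 0.0257 ± 0.0355 (limma adjusted p = 0.0421), a call kept only in the omissions of vehicle library 6, 8 or 14 or SXB library 3 (-0.20 to -0.14). Cfd and Cidec are also the listed members, 2 of 8, of the adipocyte marker list, whose summed value ran from 3.73 to 88.1 with vehicle and from 1.42 to 20.1 with SXB in the 16 libraries. The highest sum was that of vehicle library 11, which also held the highest Cfd, Cidec, Pparg and Mogat1 values. The other 6 adipocyte markers were not analysed here, and the part of adipocyte RNA in these differences was not tested.

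Sterol synthesis showed lower values without a call. Of the 30 genes of the lipogenesis and sterol list, 3 are in the table, all lower, and none passed. Hmgcs1 and Mvd, enzymes of the mevalonate pathway, differed by -0.86 and -0.74 in the 14 libraries (limma adjusted p = 0.157 and 0.123), and in each gene 2 of the 7 SXB libraries lay above the vehicle median. Apoa4, an apolipoprotein of triglyceride-rich particles, had a vehicle median of 450.4 and an SXB median of 194 and did not pass (-0.83, limma adjusted p = 0.135). Enho, which encodes the secreted peptide adropin, was above the vehicle median in all 7 SXB libraries (3.99 to 19.3, against 1.2 to 9.42 with vehicle) and just missed the threshold (1.16, SE 0.40, limma adjusted p = 0.0518).

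Stress response genes split in direction. Gdf15, a hormone secreted by stressed cells that lowers food intake through the brainstem receptor GFRAL, was 2.48 to 48.3 in the 7 vehicle libraries (median 16.1) and 1.03 to 14.2 in the 7 SXB libraries (median 2.97). Vehicle library 14, at 2.48, was below the SXB median, SXB libraries 2, 7, 9, 12 and 13 were within the vehicle range, and SXB library 18 held 38.9. Gdf15 fell 4.64-fold in the 14 libraries (-1.88, SE 0.59, limma adjusted p = 0.0428), against -1.31 in the 16, a call kept only in the omissions of vehicle library 6 or 14 or SXB library 7 (-2.26 to -1.62). Of the 25 genes of the integrated stress and unfolded protein list, the table holds 2 others, both higher without passing. Asns, the amino acid stress target asparagine synthetase, was 7.21, 3.17 and 3.11 in SXB libraries 2, 1 and 13 and 1.31 or less in the other 13 libraries (0.93, SE 0.35, limma adjusted p = 0.0694). Hspa1a, an inducible heat shock protein, differed by 0.37 (limma adjusted p = 0.132).

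Aqp8, Clstn3 and Mup-ps12 also fell. Aqp8, the member in the table of the 16 genes of bile acid handling and a water channel of the bile canaliculus and mitochondria, fell 2.05-fold from a median of 78.5 (range 41.2 to 111) to 30.8 (range 13.3 to 68.9) in the 14 libraries (-1.11, SE 0.34, limma adjusted p = 0.0421), against -0.80 in the 16, and its call ended in 9 of the 14 omissions, those of vehicle libraries 4, 8, 10, 11 and 15 and SXB libraries 1, 2, 12 and 13 (-1.28 to -0.90). Clstn3, which encodes the adhesion protein calsyntenin 3, fell by 1.05 (SE 0.31, limma adjusted p = 0.0371), against -0.72 in the 16, and the same 9 omissions as for Aqp8 ended its call (-1.19 to -0.87). Mup-ps12, a pseudogene of the major urinary protein cluster whose reads may be shared with near-identical copies, was 5.34 or more in the 7 vehicle libraries and 4.93 or less in the 7 SXB libraries, while vehicle library 16 held 2.49 and SXB library 18 held 8.11. It fell 1.96-fold (-0.84, SE 0.16, limma adjusted p = 0.0203), against -0.56 in the 16.

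Of the 40 genes of xenobiotic oxidation and conjugation, 4 are in the table, and 1 of the 4 fell in the 14 libraries, against 12.1% of all listed genes. Cyp2a22, a cytochrome P450, was 0.04 in both SXB libraries 1 and 2, 0.14 to 0.62 in the other 5, and 0.45 to 2.08 in the 7 vehicle libraries. It fell 3.68-fold (-0.66, SE 0.16, limma adjusted p = 0.0286), against -0.57 in the 16, a call that ended without vehicle library 10 or SXB library 2. Vehicle library 16 at 1.36 and SXB library 18 at 1.48 were alike in this gene. Gsta1, a glutathione transferase, was below the vehicle median in all 7 SXB libraries (0.4 to 1.14) and missed the threshold (-1.01, limma adjusted p = 0.0518), as did the glucuronosyltransferase gene Ugt2b37 in the other direction (0.42, limma adjusted p = 0.0518). Cyp2b10, a target of the xenobiotic receptor CAR, was -0.09 in the 16 libraries and 0.11 in the 14, and it did not pass in either. Vehicle library 16 held 2.51, the highest value of this gene.

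Of the 19 genes of T and natural killer cells and their ligands, the table holds Raet1d and Raet1e, and both fell, against 12.1% of all listed genes. They encode stress ligands for the natural killer cell receptor NKG2D and overlap on the same strand of chromosome 10, so that their reads may be shared. Raet1d was 8.04 to 21.4 in the 7 vehicle libraries, 1.83 or less in SXB libraries 1 and 2 and 3.55 to 11.1 in the other 5 of the 7 SXB libraries. It fell 2.99-fold (-1.56, SE 0.37, limma adjusted p = 0.0263), and Raet1e fell 2.72-fold (-1.02, SE 0.26, limma adjusted p = 0.0295), against -1.31 and -0.76 in the 16, with the calls ending without SXB library 2 and, for Raet1e, also without vehicle library 4 or 10. Clec2h, a C-type lectin-like gene outside the lists, fell 2.58-fold (-1.01, SE 0.31, limma adjusted p = 0.0409), but the call ended in 10 of the 14 omissions and was kept only without vehicle library 6 or SXB library 7, 9 or 12 (-1.25 to -0.90). Of the 23 B cell and plasma cell genes compared, 4 are in the table, all lower, beside 158 of 306 listed genes, and 2 of the 4, H2-Ob and Cd79b, fell, against 12.1% of all listed genes. H2-Ob, a chain of the class II modulator H2-O, was 8.91 in vehicle library 14, 0.43 to 2.91 in the other 6 of the 7 vehicle libraries and 0.19 to 0.45 in the 7 SXB libraries (-1.13, SE 0.34, limma adjusted p = 0.0406, against -0.85 in the 16). Its call ended without vehicle library 4, 6, 8 or 11 or SXB library 1, 2, 3, 12 or 13 (-1.30 to -0.83). Cd79b, a signalling chain of the antigen receptor of B cells, was -0.31 (limma adjusted p = 0.0495) and passed in 1 of the 14 omissions, that of vehicle library 15 (-0.37 to -0.27). The immunoglobulin D heavy chain gene Ighd and the IgE receptor gene Fcer2a did not pass (-0.37 and -0.18). The immunoglobulin gene Igkv6-32, which is outside this list, went the other way and did not pass (exact permutation adjusted p = 0.0922 in the 14 libraries). It was listed at 0.42 to 2.53 in SXB libraries 1, 2, 7, 9 and 12 and at 0 in SXB libraries 3, 13 and 18. Among vehicle libraries only 11 was above 0, at 0.42. The 4 B cell genes summed to between 0.65 and 11.1 with vehicle and between 0.96 and 3.09 with SXB in the 16 libraries, and the part of B cell number in these values was not tested.

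Lgals1, which encodes galectin-1 and was the member of the matrix list that passed of 4 listed out of 20 (12.1% of all listed genes fell), ran from 22.7 to 109 in the 7 vehicle and from 4.78 to 25.04 in the 7 SXB libraries. It fell 3.03-fold (-1.46, SE 0.37, limma adjusted p = 0.0295), against -1.05 in the 16, and the call ended without vehicle library 4 or 10 or SXB library 2. The inhibitor gene Timp1 and the collagenase and elastase genes Mmp13 and Mmp12 did not pass. Ccl2, a monocyte attractant, Itgax, the integrin CD11c, and Mmp12 were the 3 of 32 macrophage and monocyte genes in the table, lower at -0.49, -0.14 and -0.46 with none passing. Vehicle library 4 held the highest value of Ccl2 (9.41) and of Itgax (0.77), and vehicle library 11 that of Mmp12 (3.24). Of the 30 cell cycle genes 4 were listed, the ubiquitin-conjugating enzyme gene Ube2c, the anaphase-promoting complex activator gene Cdc20, the kinesin Kif23 and the kinase Pbk, and none passed (-0.41 to -0.04). Markers of other tissues were low. The pancreatic elastase gene Cela2a, 1 of 15 acinar genes, rose from a median of 0.39 to 0.86 (0.41, limma adjusted p = 0.0387; call kept in the omissions of vehicle libraries 11, 14 and 15 and SXB libraries 3, 7 and 9), and Msln and Upk3b, 2 of 8 mesothelial genes, did not pass and summed to at most 0.76 with vehicle and 0.42 with SXB.

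**Figure D4:**
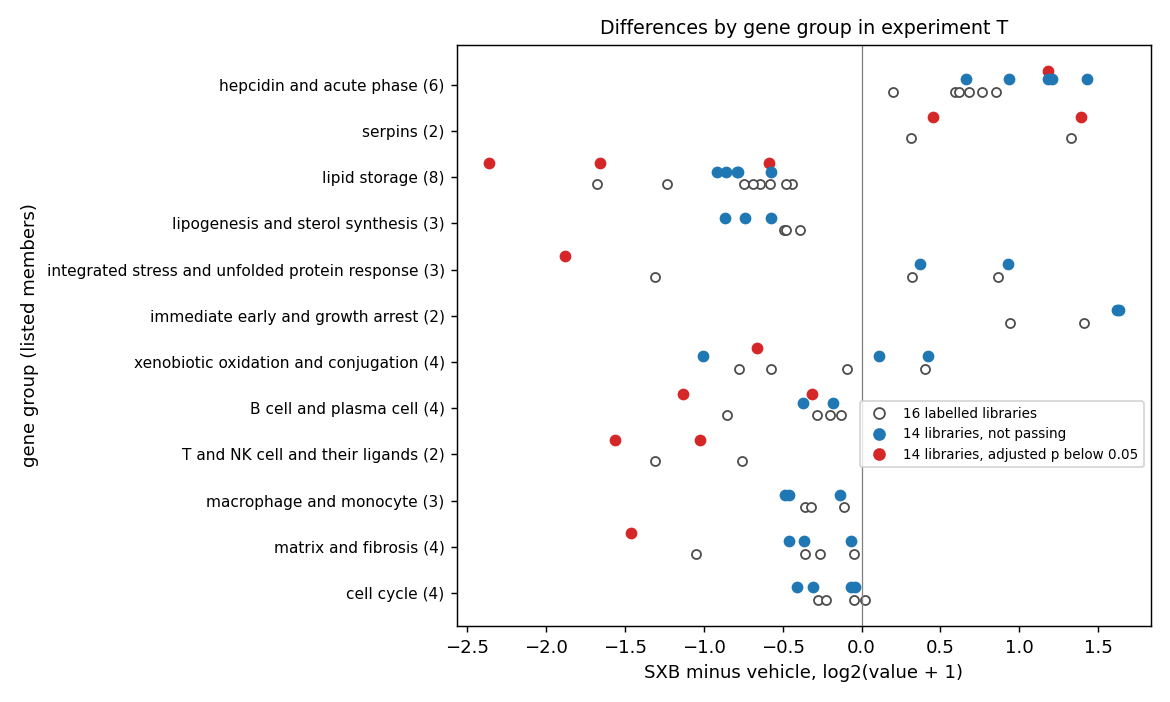
Points are listed genes of 12 groups, named on the vertical axis with the number of members in the table, against their SXB minus vehicle difference of mean log2(value + 1) on the horizontal axis. Open points are the 16 labelled libraries, blue points the 14 libraries and red points, drawn slightly higher, genes with a limma adjusted p below 0.05 in the 14: all 6 acute phase genes lie right of 0 and all 8 lipid storage genes left of it in both comparisons.

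The 6 largest differences upward in the 16 libraries were those of mt-Atp6, Moxd1, Tff3, Foxq1, Myc and Phlda1, and none of these genes passed in either comparison. For mt-Atp6, a subunit of ATP synthase whose high values were all in libraries 1 to 4, the difference was 2.92 in the 16 libraries (SE 2.29, limma adjusted p = 0.319) and 3.34 in the 14 (limma adjusted p = 0.233). Without libraries 1 to 4 it was 1.10 in the remaining 12 of the 16. Moxd1, a copper-dependent monooxygenase, was 79.9, 74.4, 31.4 and 20.9 in SXB libraries 1, 2, 13 and 12, and 0.79 or less in the other 4 SXB libraries, with 9.87 in vehicle library 14 and 0.82 or less in the other 7 vehicle libraries (2.26 in the 16 libraries, SE 1.04, limma adjusted p = 0.167). Tff3, a trefoil peptide of mucous epithelia, was highest in the same 4 SXB libraries, 27.3 to 79.2, and at most 21.3 in the other 12. These 4 are also the SXB libraries in which Pparg and Cd36 were lowest. Of the 20 genes of the immediate early and growth arrest list, the table holds Myc and Gadd45g, both higher and neither passing. The transcription factor gene Myc was 40.7, 31.02, 17.5 and 8.08 in SXB libraries 3, 1, 13 and 9, 0.78 and 0.71 in SXB libraries 2 and 12, and at most 4.27 with vehicle. Foxq1 and Phlda1 are in none of the lists. The forkhead gene Foxq1 was 11.2 to 30.1 in SXB libraries 1, 3, 7, 9 and 13 and 1.29 and 4.1 in 12 and 2, and Phlda1, a pleckstrin homology domain gene, was 284 and 251 in SXB libraries 3 and 1 and 12.1 in 12. Gadd45g, a growth arrest gene, was 74.7 to 113 in SXB libraries 1, 3, 7, 9 and 13, 34.4 and 8.19 in 2 and 12, and at most 36.8 in the 7 vehicle libraries. Its difference of 1.62 (SE 0.55, limma adjusted p = 0.0518) just missed the threshold. SXB library 12 was thus low in Myc, Foxq1, Phlda1, Gadd45g and Socs3 (2.16) while it was high in Tff3, Moxd1 and Saa1.

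**Figure D5:**
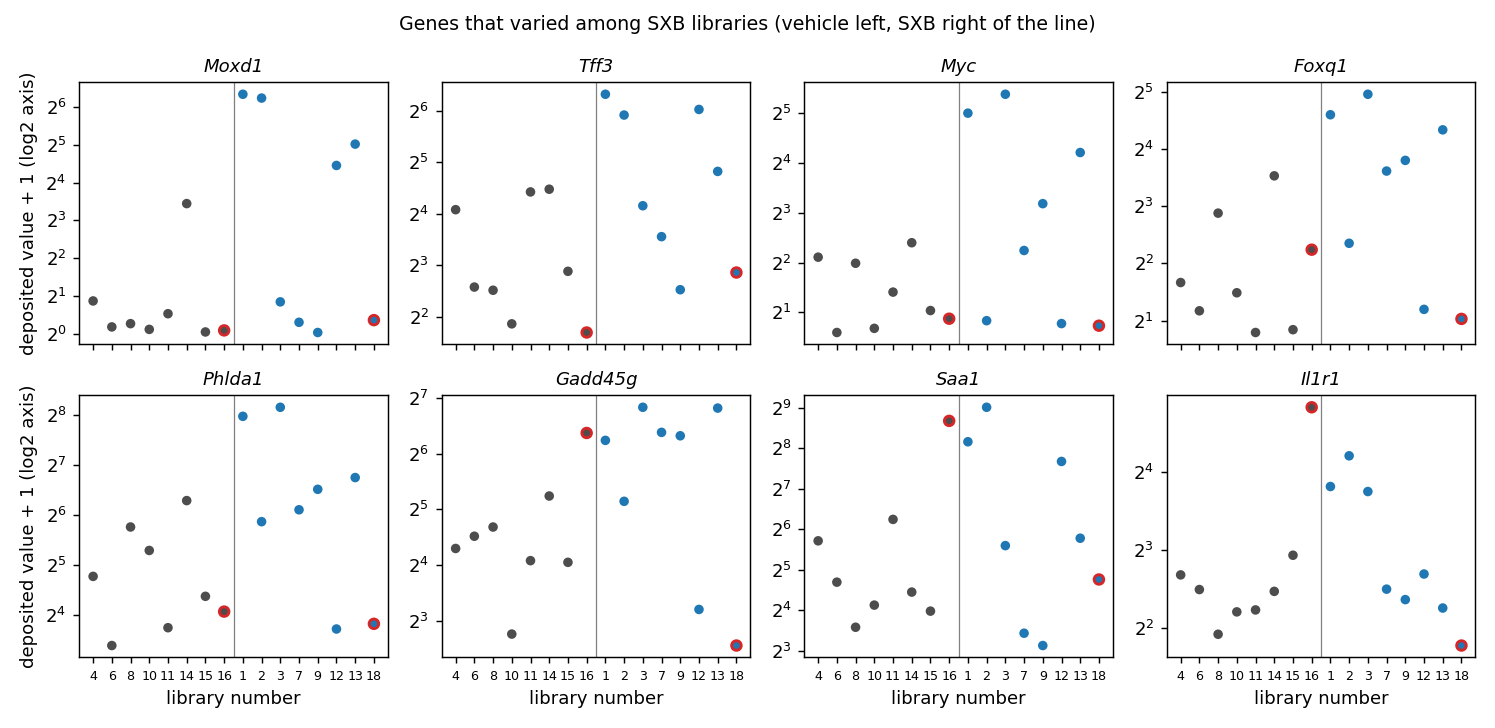
Each panel shows the deposited value plus 1 of a gene on a log2 axis for the 16 numbered libraries, vehicle left and SXB right of the line, with libraries 16 and 18 ringed in red. Moxd1 and Tff3 are highest in SXB libraries 1, 2, 12 and 13, Myc and Phlda1 in 1 and 3, and Saa1 and Il1r1 are high in SXB libraries 1 and 2 and in vehicle library 16.

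Most listed genes were low, and they were of mixed kind. A mean below 1 over the 16 libraries was found for 220 of the 306 genes and of at least 100 for 9. Of the 56 that passed in the 14 libraries 28 reached a mean of 1 in the higher group, 6 higher and 22 lower with SXB. In GENCODE M21 (GRCm38) 305 genes were matched, 195 of them protein coding, 28 pseudogenes, 2 immunoglobulin genes and 80 of other classes, mostly long non-coding. Another annotated gene on the same strand overlaps 53 of them, and 122 overlap a gene on the other strand, so part of their reads may belong to a neighbour. Among the listed genes, 24 pairs that follow each other along a chromosome lie within 100000 bases. Of these pairs 20 had the same direction in the 14 libraries, among them the Saa cluster, Pnpla3 and Pnpla5, and Mmp12 and Mmp13. Of all 306 listed genes 148 were higher and 158 lower there. Some of the pairs overlap, such as Il1r1 and Gm38070, and may share reads. Whether neighbours agree more often than other pairs was not tested. Of the 30 gene lists compared, 11 had no gene in the table, including fatty acid oxidation, glucose and insulin, the circadian clock, iron sensing through bone morphogenetic proteins, and the handling of gamma-hydroxybutyrate.

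An adjusted p below 0.05 is given in the authors' deposited table for 43 genes, 16 of them higher and 27 lower, and the 56 include 24 of these. It lists adjusted p-values of 1.22e-05 for Cfd, 6.41e-05 for Cep85 and 6.1e-06 for Clstn3. For Serpina3c that table gives 0.00049, and for G0s2 and Serpina1e 0.225 and 0.222. The authors' adjustment covered more genes than those listed. Their fold changes also lay nearer to the column blocks than to the labels, as given above. Their calls and the limma calls are therefore not a like comparison.

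The table of the other experiment, P, lists 242 genes and shares 15 with T, 4.90% of the T genes and 6.2% of the P genes. In 7 of the 15 the difference had the same sign in both experiments, and in 5 it was lower in both. Of the lipid storage list only Cidec is shared, at -0.68 in P (SE 0.30, limma adjusted p = 0.0771) and -0.58 in T over 16 libraries. Asns was -0.44 in P and 0.86 in T, Gsta1 -0.31 and -0.78, and Ugt2b37 -0.41 and 0.40. Wif1, a secreted Wnt inhibitor, was -0.20 in P, and in T it rose in the 14 libraries from 0.113 ± 0.0547 (SD, n = 7) to 0.611 ± 0.385, by 0.50 (limma adjusted p = 0.0339), a call that ended without vehicle library 4, 10 or 11 or SXB library 1 or 2. Upk3b and Cfap100, 2 of the 15, passed in P, where 38.8% of the 242 genes did. Upk3b, with the SXB group higher in P by 0.12 (limma adjusted p = 0.0297), was -0.16 in T (limma adjusted p = 0.167). Cfap100, a gene of cilia and flagella, was -0.24 in P (limma adjusted p = 0.0364) and 0.17 in T (limma adjusted p = 0.371). The difference between the experiments was not tested here. Hamp, Eif4ebp3, Cep85, Cfd, G0s2 and Gdf15 are listed in T and not among the shared genes.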

How the data were processed

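Per the labels' protocols, liver RNA was isolated with TRIzol and read in pairs of 150 bases on an Illumina HiSeq instrument. GRCm38 as build and the tools DESeq2, RSEM, StringTie, HISAT2 and fastp are named in the submitters' processing notes. Their versions and roles are not given in the sources used here. The library columns hold a signal, the authors' normalised expression value of a gene in a library, deposited with a rounding to 0.01, and no source says whether TPM or FPKM was used. The header over the comparison columns is shifted. From the values, the authors deposited a ratio (linear fold change), its log2 fold change, a p-value and an adjusted p-value. The table holds part of the genes, so depth is unknown and no counting interval can be given, and low values are the least precise.

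Library values were analysed as log2(value + 1), which understates changes of low genes, and the authors' comparison columns were only quoted. Groups follow the treatment labels. limma 3.58.1 in R 4.3.3 was run on all 306 genes, two-sided, with Benjamini-Hochberg adjustment and a threshold of 0.05, on all 16 libraries and on 14 without libraries 16 and 18. As the values are not counts, no count model was used. Exact permutation tests used all 12870 assignments of 16 libraries or 3432 of 14 (Python 3.11.15, scipy 1.17.1), with a smallest p of 0.0001554 or 0.000582751. The limma and permutation steps were tested on simulated data. Experiment P was fitted separately on its own table. No libraries were duplicates, with Spearman's rho between libraries of 0.451 to 0.856 over the listed genes.

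Named genes are, per comparison, the 10 largest differences in each direction among genes with an official symbol and a mean of at least 1 (in the 14 libraries only passing genes), genes of 30 lists, genes without overlap or shared with P, and the 5 with the highest mean. Pnpla5, Gm48199, Gm2098, Myh15, Gm29000 and Gm28819 were named after their values were seen. Not every gene so selected is described, and 2 genes of interest are not reported here. The members, lists and rules were chosen with earlier results of these data known. Alternatives were a pseudocount of 0.1, a mean of at least 1, trend and robust fitting, the permutation test, libraries 1 to 4 as a term or left out, and each library left out. Gene names were matched to GENCODE M21 for 305 of 306 genes.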

Additional observations from a re-analysis of the deposited data

Results flagged for a closer look

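In groups of 8 labelled libraries, a library was singled out when its gap to the nearest other library, on log2(value + 1), took up more of the whole range of the group than Dixon's critical value allows. This happened in 23 of 138 groups tested, where chance gives about 5%. The groups are those of the genes considered for the text, so these counts describe that choice. Library 16 or 18 was the one singled out in 14 of them and library 4 in 5.

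Among vehicle libraries, library 16 was far above the others in Il1r1 (27.32), Serpina3c (0.62), Cep85 (767.5), Cyp2b10 (2.51), Gm48199 (6.71) and the myosin gene Myh15 (1.53), and far below them in Mup-ps12 (2.49). Among SXB libraries, library 18 was far below the others in Eif4ebp3 (13.48) and far above them in Cfd (13.13), Pnpla5 (0.27), Timp1 (0.45), H2-Ob (1.67), Gsta1 (7.81) and Msln (0.26). SXB library 1 stood far above the other SXB libraries in Cfap100 (1.34). Vehicle library 4 stood far above the other vehicle libraries in Pnpla3 (3.9), Fcer2a (0.76), Kif23 (1.82), Tmc5 (0.04, with the other 7 at 0) and mt-Atp6 (6421.52). Vehicle library 14 stood above in Moxd1 (9.87). Pbk was highest in vehicle library 10 (0.31) and in SXB library 12 (0.23). What sets these libraries apart was not tested.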

How the results depend on the processing

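In the 16 labelled libraries 0 genes passed under each alternative and each omission of 1 library tried, and 56 passed once libraries 16 and 18 were left out. In the 14 libraries a pseudocount of 0.1 gave 106 genes (41 higher, 65 lower), leaving out libraries 1 to 4 gave 4, and leaving out each library in turn gave 3 to 76, the 76 without vehicle library 14. Omitting vehicle library 10, 4, 11, 8 or 15 gave 16, 19, 25, 30 or 33 genes, and omitting SXB library 1, 12, 13 or 2 gave 29, 31, 29 or 3. It was 39 among genes with a mean of at least 1, 68 with trend and robust fitting, 50 with a term for libraries 1 to 4 and 61 by permutation. With that term 20 of the 56 calls ended, among them those of G0s2, Gdf15, Serpina1e, Aqp8, Clec2h, H2-Ob, Cd79b and Cela2a.

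Of all 306 genes, the difference in the 16 libraries changed sign for 13 with the term for libraries 1 to 4 and for 36 without these 4 libraries (4 and 8 in the 14). Among the genes considered for the text these were Il1r1 with the term (-0.071) and, without the 4 libraries, Il1r1 (-0.41), Saa1 (-0.15), Saa2 (-0.27), Saa4 (-0.037), Kif23 (0.0062) and Cfap100 (-0.082, and -0.060 in the 14). Without libraries 16 and 18 Cyp2b10 was 0.11 and Cdc20 -0.043. Over the omissions of 1 library Cdc20 ran from -0.024 to 0.052 and Cyp2b10 from -0.20 to 0.11 in the 16 libraries, and Cyp2b10 from -0.015 to 0.17 in the 14. The cause was not tested. No paired analysis was possible because the labels give no pairing. The unknown depth limits what the genes with values below 1 can show.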
